A study of Mus musculus with 72 samples.

Results

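The auxiliary subunits of voltage-gated calcium channels were followed across every tissue and genotype of a Gnb5 knockout mouse series. They are 8 genes, listed by name with earlier results of these data known. Cacna2d1, Cacna2d2, Cacna2d3 and Cacna2d4 encode the α2δ subunits, and Cacnb1, Cacnb2, Cacnb3 and Cacnb4 encode the β subunits. All 8 were found among the 53715 gene identifiers of the count files. Gnb5 encodes Gβ5, a G protein β subunit that works together with the RGS proteins of neurons and heart.

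A voltage-gated calcium channel is built around a pore-forming α1 subunit. The α2δ subunits are largely extracellular, are held at the membrane, and raise the number of channels at the cell surface. α2δ-1 and α2δ-2 bind the gabapentinoid drugs. The β subunits are cytosolic, bind the pore subunit on its inner side, bring it to the membrane and shape its gating. In cardiac muscle the L-type channel starts contraction and serves the pacemaker, and in neurons the related channels trigger transmitter release.

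RNA-seq libraries came from 18 male mice aged 18 weeks, 6 Gnb5+/+ (wild-type), 6 Gnb5+/- (heterozygous) and 6 Gnb5-/- (knockout). The knockout allele lacks exon 3 of Gnb5 in the germline, on a C57BL/6J background. Atria and ventricles were sequenced for the 3 genotypes. Of the brain, cerebellum, hippocampus and cerebral cortex were sequenced for Gnb5-/- and Gnb5+/+ mice, which gives 72 libraries in 12 groups of 6. The libraries of a mouse share its number across tissues. The atria held both sides with their nodal cells, and every sample was bulk tissue, in which fewer cells of a type and less RNA per cell cannot be told apart.

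Each library held 29204390 to 48807435 counts on genes. Levels are given as TMM-normalised read counts scaled to library size (CPM), on 1 scale over all 72 libraries, and levels of different genes are compared only as CPM per kilobase of merged exon. Gnb5 lay between 0.840 and 2.93 CPM in the Gnb5-/- heart libraries, against 26.5 to 36.9 in Gnb5+/+, and reached at most 16.3 against 71.4 to 114 in the brain, so no library went against its genotype label. Of the tissue markers, 5 of 5 atrial, 5 of 5 ventricular, 6 of 6 cerebellar, 4 of 6 hippocampal and 5 of 6 cortical genes were highest in their own tissue. Libraries that stood apart were Gnb5-/- cerebellum replicate 2, Gnb5-/- cerebral cortex replicates 3 and 5 and Gnb5+/- ventricles replicate 4, in which a smaller share of reads fell outside genes (8.14%, 6.96%, 8.42% and 2.88%) than in the rest of their groups (at least 14.2%, 13.6%, 13.6% and 4.65%).

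In GRCm38 the annotation places Cacna2d1 (ENSMUSG00000040118) on chr5:15934691-16374511 (plus strand), Cacna2d2 (ENSMUSG00000010066) on chr9:107399612-107529343 (plus strand), Cacna2d3 (ENSMUSG00000021991) on chr14:28904943-29721864 (minus strand) and Cacna2d4 (ENSMUSG00000041460) on chr6:119236526-119352407 (plus strand). It places Cacnb1 (ENSMUSG00000020882) on chr11:98001508-98023034 (minus strand), Cacnb2 (ENSMUSG00000057914) on chr2:14603088-14987908 (plus strand), Cacnb3 (ENSMUSG00000003352) on chr15:98630840-98644529 (plus strand) and Cacnb4 (ENSMUSG00000017412) on chr2:52428320-52676831 (minus strand). The merged exons of the 8 genes measured 4010 to 13228 bases, UTRs included, and a count covers all transcripts of a gene.

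The sequences before the RefSeq start sites of Cacna2d1, Cacna2d2 and Cacna2d3 are given first. Between the chambers of the heart Cacna2d2 and Cacna2d3 moved together and Cacna2d1 moved against them. The sequences are the 250 bases upstream of the RefSeq start in GRCm38.p6, read 5′ to 3′ on the strand of the gene. That of Cacna2d2 lies inside the gene span given above, since its RefSeq start is downstream of the annotated one. Cacna2d1 is on chr5:15934441-15934690 (plus strand), Cacna2d2 on chr9:107399630-107399879 (plus strand) and Cacna2d3 on chr14:29721865-29722114 (minus strand). Capitals mark the GC box, searched as GGGCGG or its reverse complement CCGCCC, with overlaps counted.
Cacna2d1: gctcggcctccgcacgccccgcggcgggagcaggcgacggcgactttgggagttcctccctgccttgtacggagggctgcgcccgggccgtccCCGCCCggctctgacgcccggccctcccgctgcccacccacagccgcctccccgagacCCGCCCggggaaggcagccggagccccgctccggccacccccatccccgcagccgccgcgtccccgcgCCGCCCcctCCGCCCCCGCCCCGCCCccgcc
Cacna2d2: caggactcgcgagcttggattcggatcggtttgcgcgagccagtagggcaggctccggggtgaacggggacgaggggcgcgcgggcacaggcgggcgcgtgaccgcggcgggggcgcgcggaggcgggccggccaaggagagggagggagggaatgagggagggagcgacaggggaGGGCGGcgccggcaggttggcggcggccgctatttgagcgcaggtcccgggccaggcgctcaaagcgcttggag
Cacna2d3: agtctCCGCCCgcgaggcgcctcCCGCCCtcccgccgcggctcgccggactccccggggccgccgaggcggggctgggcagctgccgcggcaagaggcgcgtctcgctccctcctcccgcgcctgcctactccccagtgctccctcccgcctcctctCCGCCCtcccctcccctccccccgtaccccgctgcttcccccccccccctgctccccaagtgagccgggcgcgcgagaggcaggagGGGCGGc
All 3 were rich in G and C, at 82.4%, 74.4% and 80.0%, against a median of 52.4% over 32851 mouse promoters of the same length. The GC box occurred 6, 1 and 4 times, and it was present in 32.7% of all promoters. None of the 3 held the E-box CACGTG (in 6.02% of all), the T-box core GGTGTG (16.3%), the GATA motif GATAAG (6.55%) or TATAAA (12.4%), on either strand. RefSeq promoters were matched for 7 of the 8 genes, all but Cacna2d4, with 12 entries in all. Each β gene had starts both rich and poor in CpG dinucleotides. Cacnb2 had 1 start with a G and C content of 73.2% and 30 CpG dinucleotides, and another on the same strand with 46.0% and 3. Both lie inside the annotated span of the gene. The start with fewest CpG dinucleotides had 56.0% and 1 in Cacnb1, 56.0% and 2 in Cacnb3, and 48.8% and 4 in Cacnb4. Counts per gene do not say which start was used.

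In wild-type mice the α2δ genes changed places from tissue to tissue. Cacna2d1 led in ventricles, hippocampus and cerebral cortex, and Cacna2d2 in cerebellum. Cacna2d1 and Cacna2d2 were near each other in atria. Of the 4 genes, Cacna2d1 made up 97.8% ± 0.443 (SD, n = 6) of the summed CPM per kilobase in ventricles and 43.5% ± 7.31 in atria. Cacna2d2 made up 46.7% ± 7.96 in atria and 69.2% ± 1.11 in cerebellum, but 1.82% ± 0.371 in ventricles. Cacna2d3 contributed 35.5% ± 1.59 in hippocampus and 29.7% ± 1.11 in cerebral cortex. Cacna2d4 had its highest mean share, 0.543% ± 0.0724, in cerebral cortex. With the length of the longest transcript in place of merged exons, Cacna2d1 came before Cacna2d2 in atria, at 45.4% ± 6.83, and the leading gene of the other tissues was the same.

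Among the β genes, Cacnb2 led in both heart tissues, with 57.4% ± 4.42 of the family in atria and 74.5% ± 1.84 in ventricles. Cacnb4 led in cerebellum with 76.2% ± 2.13. Cacnb3 led in hippocampus with 52.2% ± 1.06 and in cerebral cortex with 54.5% ± 1.27, each time followed by Cacnb1 with 25.3% ± 0.408 and 22.2% ± 1.41. These leaders were the same with either gene length.

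The summed level of the 4 α2δ genes lay in a narrow range over the tissues, and that of the 4 β genes in a wide one. No test was run on these sums. The α2δ sum was 29.97 ± 3.98 CPM per kilobase in atria, 32.8 ± 4.23 in ventricles, 35.04 ± 1.54 in cerebellum, 31.6 ± 1.11 in hippocampus and 34.7 ± 1.34 in cerebral cortex, a ratio of 1.17 between the highest and the lowest mean. The β sum was 12.5 ± 1.10 and 13.5 ± 0.725 in atria and ventricles and 66.2 ± 2.39, 87.7 ± 2.59 and 113.6 ± 3.96 in the brain regions, a ratio of 9.12. For comparison, the 10 pore genes summed to means between 35.3 and 102.9, a ratio of 2.92. With the longest transcript as the length, the ratios were 1.32, 6.06 and 2.62.

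**Figure D1:**
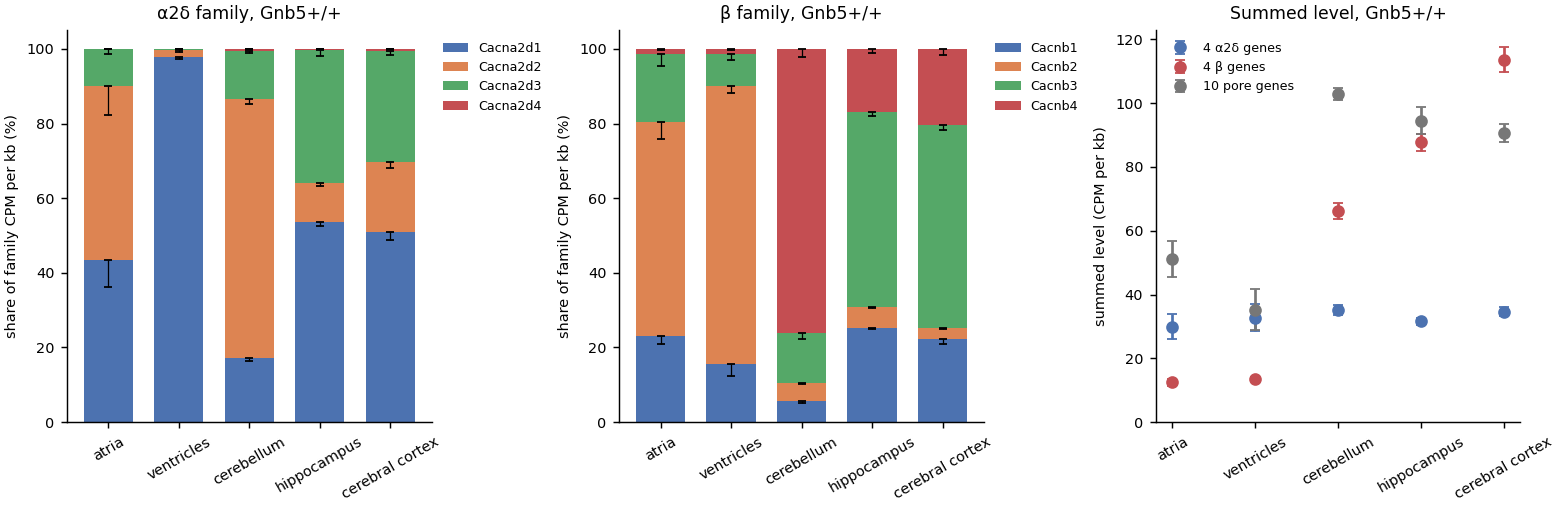
Shares of each gene in the summed CPM per kilobase of its family (%, left and middle, bars stacked, SD drawn downward from the top of each segment) and summed level of each family (CPM per kilobase, right, mean and SD of 6 libraries) in Gnb5+/+ mice. Cacna2d1 fills 97.8% of the ventricular α2δ bar, Cacnb4 fills 76.2% of the cerebellar β bar, and the α2δ sum stays between 29.97 and 35.04 while the β sum runs from 12.5 to 113.6.

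Each pair of tissues was then compared within Gnb5+/+ mice by edgeR's quasi-likelihood test with the mouse as a block, over 19477 genes. Between atria and ventricles 6 of the 8 members were called, where 53.6% of all genes were called. They were 4 higher in atria (31% of all genes) and 2 lower (22.7%). In the 6 comparisons of a heart tissue with a brain region all 8 were called. So were 87.3%, 87.6% and 88.1% of all genes between atria and cerebellum, hippocampus and cerebral cortex, and 87.3%, 87.8% and 88.3% between ventricles and these regions. Within the brain 8 of 8 were called between cerebellum and hippocampus (70.8% of all genes), 6 of 8 between cerebellum and cerebral cortex (71.8%) and 5 of 8 between hippocampus and cerebral cortex (37.7%). The median log2 fold change of all genes in the comparisons of heart with brain lay between -0.27 and -0.15, so differences of that size there are not read as changes of a gene.

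**Figure D2:**
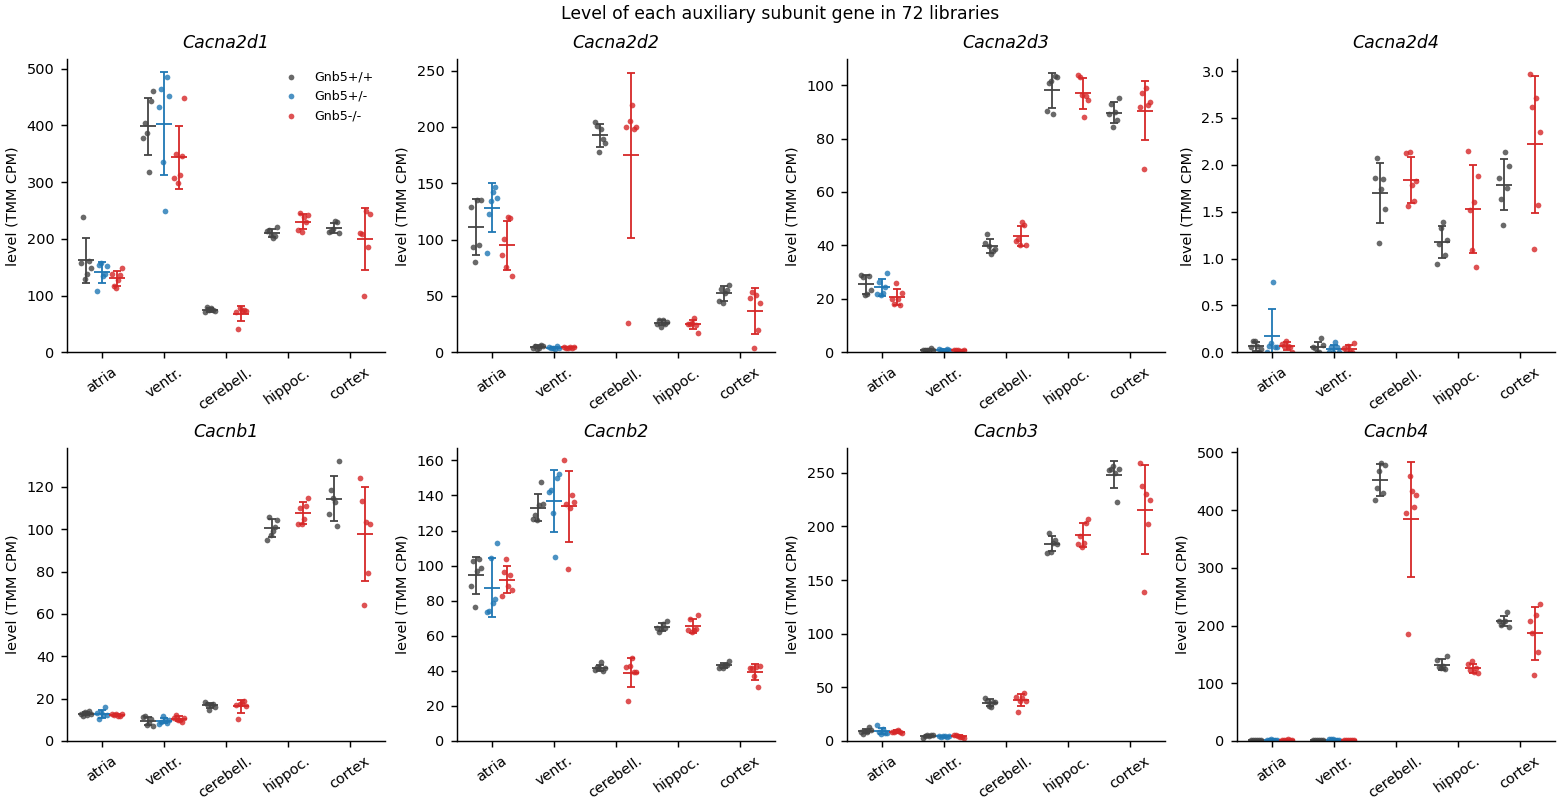
Level of each member in the 72 libraries (TMM-normalised CPM, linear axes from 0), by tissue and genotype, with 1 point per library and the mean and SD of each group of 6. Cacna2d2 and Cacna2d3 are far higher in atria than in ventricles, Cacnb1, Cacnb3 and Cacnb4 are higher in hippocampus and cerebral cortex than in the heart, and single Gnb5-/- libraries of cerebellum and cerebral cortex lie low for several members.

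Cacna2d1, the α2δ subunit of skeletal and cardiac L-type channels, was highest in ventricles. Its wild-type level ran from 318 to 459.8 CPM there with a median of 395, from 129 to 238 in atria with a median of 153, and from 71.1 to 79.6 in cerebellum with a median of 74.6. Hippocampus (201 to 221) and cerebral cortex (210.2 to 231) lay below ventricles and overlapped each other. They lay within the range of atria only through atria replicate 2, at 238 CPM, since the next atrial library had 161. Atria was called lower than hippocampus, by a log2 difference of -0.38 (SE 0.090, adjusted p = 0.00036 by edgeR). It was also called lower than cerebral cortex, by -0.42 (SE 0.090, adjusted p = 0.00011 by edgeR). Ventricles and atria did not overlap, and atria was lower by a log2 difference of -1.28 (SE 0.091, adjusted p = 2.2e-12 by edgeR). Hippocampus and cerebral cortex, its neighbours in the order, differed by -0.04 with a 95% interval from -0.23 to 0.14 (adjusted p = 0.75).

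Cacna2d2, an α2δ subunit whose loss causes ataxia and seizures in mice, was highest in cerebellum. Its wild-type level there ran from 178 to 204 CPM (median 194). Atria came next, from 79.8 to 135 (median 112), then cerebral cortex, from 43.8 to 59.9 (median 54.1), and hippocampus, from 22.9 to 28.6 (median 26.1). Ventricles had the lowest level, from 3.39 to 6.73 (median 4.57). The 5 tissues did not overlap at any step of this order. Atria exceeded ventricles by a log2 difference of 4.57 (SE 0.134, adjusted p = 1.2e-20 by edgeR), a 23.7-fold difference, and cerebellum exceeded atria by 0.84 (SE 0.106, adjusted p = 3.2e-08, written as atria minus cerebellum -0.84).

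Cacna2d3, an α2δ subunit known from brain and from nociception, had its highest levels in hippocampus (89.2 to 103 CPM, median 101) and cerebral cortex (84.2 to 95.2, median 89.4). Cerebellum had 36.9 to 44.2 and atria 21.6 to 29.1. In ventricles it was near the bottom of the range, from 0.808 to 1.68 CPM, which were 15 to 33 reads per library. Atria again exceeded ventricles without overlap, by a log2 difference of 4.65 (SE 0.114, adjusted p = 3.4e-22 by edgeR) or 25.1-fold. Hippocampus and cerebral cortex differed by 0.14, with an interval from -0.01 to 0.29 (adjusted p = 0.13).

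Lrtm1, a protein-coding gene on the opposite strand within Cacna2d3 that shares no exon base with it, had the reverse order, with 82.9 ± 66.5 CPM in wild-type atria and 972.4 ± 77.5 in ventricles. The kit marks strand, and the strand setting of the counting was not given in the sources used here. Markers of intracardiac neurons, 7 genes, summed to between 14.4 and 27.4 CPM in wild-type atria and between 2.80 and 8.04 in ventricles, where 4 of the 7 were at 0 in all libraries. Their part in the atrial levels of Cacna2d2 and Cacna2d3 was not tested.

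Cacna2d4, the α2δ subunit of photoreceptor channels, was low everywhere. Heart libraries of wild-type mice held 0 to 4 reads of it, and 3 of those 12 libraries held 0, which allows up to 3 reads by counting error alone. Cerebellum (1.17 to 2.08 CPM, median 1.79) and cerebral cortex (1.36 to 2.13, median 1.81) overlapped, with a log2 difference of -0.00249 and an interval from -0.38 to 0.37. Hippocampus was lower, from 0.940 to 1.39 CPM, by -0.58 against cerebral cortex (SE 0.189, adjusted p = 0.016 by edgeR). Lrtm2 lies on the opposite strand within this gene, shares no exon base with it, and had 25.4 to 55.9 CPM on average in the wild-type brain regions, far above Cacna2d4 itself.

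Cacnb1, the β subunit of the skeletal muscle channel and also a neuronal one, was highest in cerebral cortex (102 to 132 CPM, median 114) and hippocampus (94.9 to 106, median 100.2). These overlapped and were not called different, with a log2 difference of -0.17 and an interval from -0.34 to -0.01 (adjusted p = 0.090). Cerebellum had 14.7 to 18.2 CPM, atria 11.6 to 13.95 and ventricles 7.27 to 11.9. Atria and ventricles overlapped, yet atria was higher by 0.49 (SE 0.095, adjusted p = 8.1e-05). In Gnb5-/- mice the same difference was 0.21 (SE 0.132, adjusted p = 0.22).

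Cacnb2, the main β subunit of the cardiac L-type channel, was the one β gene with its highest level in the heart. Ventricles had 126 to 147 CPM (median 132) and atria 76.6 to 104 (median 97.7), without overlap, a log2 difference of -0.46 (SE 0.051, adjusted p = 1.1e-08). Hippocampus followed with 62.1 to 68.6 CPM. Cerebellum (40.1 to 44.8) and cerebral cortex (41.5 to 45.8) overlapped and differed by 0.03 with an interval from -0.08 to 0.13 (adjusted p = 0.65), a difference that turned its sign with another scaling.

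Cacnb3, a β subunit of neuronal N-type and L-type channels, had 223 to 256 CPM (median 253) in cerebral cortex and 175 to 194 (median 184) in hippocampus, without overlap. Cerebellum had 31.2 to 40.4 CPM, atria 6.27 to 12.9 and ventricles 3.02 to 5.66. All 4 steps of this order passed the test, the smallest of them from hippocampus to cerebral cortex at -0.42 (SE 0.100, adjusted p = 0.0015). Atria exceeded ventricles by 1.00 (SE 0.130, adjusted p = 2.1e-07).

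Cacnb4, the β subunit lost in the lethargic mouse, had 417 to 482 CPM (median 453) in cerebellum. Cerebral cortex had 198 to 223 and hippocampus 124 to 146, and the 3 regions did not overlap. In the heart it had 1.17 to 2.01 CPM in atria and 1.12 to 1.98 in ventricles, which overlapped and differed by 0.02 with an interval from -0.28 to 0.32 (adjusted p = 0.95). Its antisense neighbour A430018G15Rik shares 1433 exon bases with it and had 0.522 ± 0.183 CPM in wild-type atria and 0.415 ± 0.196 in ventricles. Its exons could share reads with Cacnb4, whose means were 1.496 CPM in both chambers, so the cardiac values of Cacnb4 are uncertain.

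In Gnb5-/- mice the chamber differences of the heart had the same signs for all 8 members. For Cacna2d4 and Cacnb4 the sign says little, since their Gnb5+/+ differences were 0.25 (SE 0.653) and 0.02 (SE 0.145). Cacna2d2 was higher in atria by 4.42 (SE 0.470), Cacna2d3 by 4.87 (SE 0.143) and Cacnb3 by 0.96 (SE 0.154), and Cacna2d1 was lower by -1.41 (SE 0.147) and Cacnb2 by -0.55 (SE 0.131). These 5 had adjusted p of 0.0013 or less by edgeR. The standard error of Cacna2d2 was 0.134 in Gnb5+/+ mice. Between hippocampus and cerebral cortex 2 of the 8 members were called in Gnb5-/- mice, where 24% of all genes were called. That fit holds the Gnb5-/- libraries that stood apart, and their part in this count was not tested.

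The pore subunits and partners of these channels give the setting. Of the 10 pore genes, the one of highest CPM per kilobase in wild-type mice was Cacna1h, a T-type pore, in atria (34.5 ± 5.06), Cacna1c, the cardiac L-type pore, in ventricles (25.5 ± 3.76) and Cacna1a, the P/Q-type pore, in cerebellum (37.0 ± 0.922). In hippocampus it was Cacna1e, the R-type pore (20.2 ± 2.20), and in cerebral cortex Cacna1b, the N-type pore (16.97 ± 0.910), there within the spread of Cacna1e (16.3 ± 0.882). Cacna1d, the L-type pore of pacemaker cells, had 2.08 ± 0.283 in atria and 0.228 ± 0.0384 in ventricles, named after its values were seen. Of the 8 γ genes Cacng7 was the highest in every tissue, from 1.86 ± 0.383 in atria to 53.6 ± 1.41 in cerebellum. Between atria and ventricles 7 of 10 pore genes were called, 5 higher and 2 lower in atria, at a median log2 difference of 0.65, beside 53.6% of all genes. Among the 5 higher, Cacna1e (0.0491 in atria, 0.0189 in ventricles) and Cacna1i (0.106 and 0.0250) were near the floor in both chambers. Of the 7 γ genes tested 6 were called, 5 higher and 1 lower, at a median of 3.40. The lower gene was Cacng6, named after its values were seen, with 0.116 ± 0.226 in atria. Its log2 difference was -4.23 (SE 0.495, adjusted p = 3.4e-08 by edgeR). The 5 higher γ genes lay near the floor, at means of at most 0.0604 CPM per kilobase in atria. Cacng2, Cacng3, Cacng5 and Cacng8 were at 0 in ventricles. The low-count filter of this fit ran over all tissues, brain included, so that median is no measure of γ levels in the heart. Of the 14 partner genes 7 were called, 5 higher and 2 lower, at a median of 0.31.

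The genes most like each member over the 72 libraries, by Pearson's r of log2 CPM among 16210 protein-coding genes, are a description in which the points share tissues and mice. Cacna2d1 was nearest to Homer2 (r = 0.960) and Ulk2 (0.944), and Cacna2d2 to Hydin (0.950) and Smad9 (0.937). Cacna2d3 was nearest to Plppr5 (0.988) and Gnao1 (0.987), and Cacna2d4 to Suv39h1 (0.966) and Rab11fip4 (0.961). Cacnb1 was nearest to Chn1 (0.990) and Mast3 (0.990), Cacnb2 to Fam160a1 (0.958) and Adamts9 (0.957), Cacnb3 to Zfp365 (0.994) and Dmtn (0.992), and Cacnb4 to Galnt13 (0.995) and Kcna2 (0.995). Between members r ran from -0.88 for Cacnb2 with Cacnb4 to 0.95 for Cacnb1 with Cacnb3.

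The loss of Gnb5 was then examined in each tissue. No member was called between Gnb5-/- and Gnb5+/+ mice by edgeR, with 7 of 8 tested in each heart tissue, where Cacna2d4 fell under edgeR's filter on low counts, and 8 of 8 in each brain region. Of all genes, 0.253% were called in atria, 0.188% in ventricles, 0.0817% in cerebellum, 0.165% in hippocampus and 0.0557% in cerebral cortex. No member was called between Gnb5+/- and Gnb5+/+ mice either, where 0.0124% of genes were called in atria and 0.0202% in ventricles. The groups of all 8 members overlapped in each comparison, where those of 0.661% of genes (Gnb5-/- atria), 0.552% (ventricles), 1.14% (cerebellum), 0.694% (hippocampus), 0.495% (cerebral cortex), 0.192% (Gnb5+/- atria) and 0.155% (Gnb5+/- ventricles) did not. DESeq2, which also tested Cacna2d4 in the heart (adjusted p of 0.99 or more), called 0 members in all 7 comparisons, beside 0.618%, 0.293%, 0.299%, 0.509%, 0.142%, 0.0268% and 0.0106% of genes in the same order. At an unadjusted p under 0.05 edgeR had 3 members in atria (8.15% of all genes), 1 in ventricles (4.78%), 0 in cerebellum (5.85%), 2 in hippocampus (7.7%) and 0 in cerebral cortex (7.39%), and 1 in each Gnb5+/- comparison (7.22% in atria, 4.84% in ventricles). In the order Gnb5-/- atria, Gnb5+/- atria, Gnb5-/- ventricles, Gnb5+/- ventricles, cerebellum, hippocampus and cerebral cortex, 8, 8, 7, 7, 9, 10 and 10 of the 10 pore genes, 1, 1, 2, 2, 6, 7 and 7 of the 8 γ genes and 10, 10, 10, 10, 13, 14 and 14 of the 14 partner genes were tested. None of those tested was called by edgeR, with at most 3 of a list at an unadjusted p under 0.05 (partners in hippocampus).

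**Figure D3:**
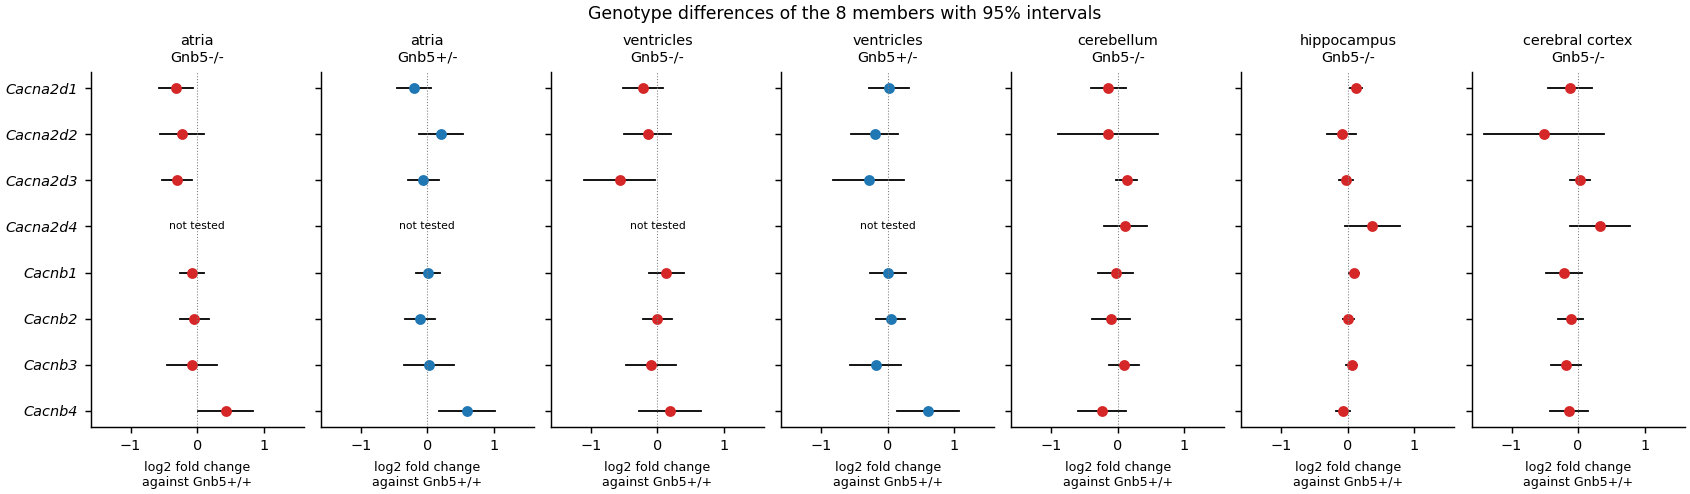
Log2 fold change of each member against Gnb5+/+ in each tissue (points, edgeR) with its 95% interval (lines), for Gnb5-/- (red) and Gnb5+/- (blue). Cacna2d4 was filtered out in the heart, the intervals of Cacna2d1, Cacnb1 and Cacnb2 in hippocampus are narrow, and that of Cacna2d2 in cerebral cortex is the widest of the brain, from -1.41 to 0.39.

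In Gnb5-/- atria Cacna2d1 and Cacna2d3 had log2 fold changes below 0 that did not pass the adjusted threshold. In atria Cacna2d1 ran from 114 to 149 CPM in Gnb5-/- (median 132), from 109 to 158 in Gnb5+/- (median 146) and from 129 to 238 in Gnb5+/+ (median 153). All 6 Gnb5-/- libraries lay below the Gnb5+/+ mean, and the groups overlapped. The log2 fold change was -0.32 (SE 0.126, 95% interval -0.58 to -0.06, adjusted p = 0.48 by edgeR). Wild-type replicate 2, at 238 CPM, stood above the other libraries of its group, and without it the log2 fold change was -0.17 (adjusted p = 0.74 by edgeR). In ventricles Cacna2d1 ran from 299 to 449 CPM in Gnb5-/- and from 318 to 459.8 in Gnb5+/+, at -0.22 (interval -0.52 to 0.08, adjusted p = 1.00).

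Cacna2d3 in atria ran from 17.8 to 26.0 CPM in Gnb5-/- (median 20.0) and from 21.6 to 29.1 in Gnb5+/+ (median 25.8), with overlap. Its log2 fold change was -0.30 (SE 0.108, interval -0.53 to -0.08, adjusted p = 0.41). In ventricles it ran from 0.509 to 0.929 CPM against 0.808 to 1.68, with all 6 Gnb5-/- libraries below the wild-type mean, at -0.57 (SE 0.256, interval -1.10 to -0.04, adjusted p = 0.98). Only 10 to 33 reads per library lie behind the ventricular values. Gnb5+/- medians lay between in both chambers, at 23.4 and 0.775 CPM. Lrtm1, within this gene, had 29.9 ± 12.4 CPM in Gnb5-/- atria beside 82.9 ± 66.5 in Gnb5+/+, and its part in the Cacna2d3 values was not tested.

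Cacnb4 had log2 fold changes above 0 in mutant hearts that did not pass the adjusted threshold, and the groups overlapped. In atria it ran from 1.17 to 2.01 CPM in Gnb5+/+ (median 1.52), from 1.54 to 3.60 in Gnb5+/- (median 2.09) and from 1.47 to 2.48 in Gnb5-/- (median 2.03). Against wild-type the log2 fold change was 0.60 in Gnb5+/- (SE 0.200, interval 0.18 to 1.02, adjusted p = 0.61 by edgeR) and 0.43 in Gnb5-/- (SE 0.200, interval 0.01 to 0.85, adjusted p = 0.60). In ventricles it was 0.60 in Gnb5+/- (SE 0.223, interval 0.14 to 1.07, adjusted p = 0.96) and 0.18 in Gnb5-/- (SE 0.224, interval -0.28 to 0.65, adjusted p = 1.00). The Gnb5+/- and Gnb5-/- comparisons share their wild-type libraries. The 7 neuronal markers summed to 20.4 to 30.7 CPM in Gnb5+/- atria and 5.25 to 10.8 in Gnb5+/- ventricles, beside 14.4 to 27.4 and 2.80 to 8.04 in Gnb5+/+, and their part in the Cacnb4 values was not tested. A430018G15Rik had 0.725 ± 0.295 CPM in Gnb5+/- and 0.717 ± 0.195 in Gnb5-/- atria beside 0.522 ± 0.183 in Gnb5+/+. Gnb5+/- ventricles replicate 4 had the lowest Cacnb4 value of its group, 1.12 CPM, and without it the Gnb5+/- log2 fold change in ventricles was 0.74 (adjusted p = 0.71).

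The cardiac L-type β subunit had log2 fold changes near 0 in Gnb5-/- mice. Cacnb2 had 82.9 to 104 CPM in Gnb5-/- atria and 98.0 to 160.4 in Gnb5-/- ventricles, at -0.04 (interval -0.26 to 0.18) and -0.00116 (interval -0.22 to 0.22). The atrial interval of Cacnb1 was -0.26 to 0.11, and the ventricular one -0.13 to 0.40. For Cacnb3 they were -0.46 to 0.30 and -0.47 to 0.28.

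Cacna2d2, which lies on chromosome 9 as Gnb5 does, 32.1 Mb away, ran from 68.1 to 119.9 CPM in Gnb5-/- atria (median 93.4), from 87.7 to 147 in Gnb5+/- (median 135) and from 79.8 to 135 in Gnb5+/+ (median 112). The groups overlapped, and the log2 fold changes were -0.23 (interval -0.56 to 0.11) in Gnb5-/- and 0.21 (interval -0.13 to 0.54) in Gnb5+/-.

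In hippocampus the libraries of a group lay close together. Cacna2d1 ran from 212 to 246 CPM in Gnb5-/- mice (median 233) and from 201 to 221 in Gnb5+/+ (median 210.3), and all 6 Gnb5-/- libraries lay above the wild-type mean. Its log2 fold change was 0.12 (SE 0.042, interval 0.03 to 0.21, adjusted p = 0.52 by edgeR). Cacnb1 ran from 102 to 115 against 94.9 to 106 CPM, a log2 fold change of 0.09 (SE 0.037, interval 0.01 to 0.17, adjusted p = 0.60), again with all 6 above the mean. Cacna2d2, Cacna2d3, Cacnb2, Cacnb3 and Cacnb4 had log2 fold changes between -0.10 and 0.05, and the widest of their intervals was that of Cacna2d2, from -0.32 to 0.12.

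In cerebral cortex Cacna2d4 reached its highest values of the 72 libraries, in 4 of the 6 Gnb5-/- mice. The 6 Gnb5-/- libraries held 2.97, 2.61, 1.10, 2.71, 1.57 and 2.35 CPM, from 45 to 148 reads, and the 6 Gnb5+/+ libraries 1.86, 1.64, 1.36, 2.13, 1.75 and 1.98, from 77 to 117 reads. The low pair in Gnb5-/- are replicates 3 and 5, which have few reads outside genes. Over all 12 libraries the log2 fold change was 0.32 (SE 0.209, interval -0.13 to 0.78, adjusted p = 0.48 by edgeR and 0.55 by DESeq2). Without replicate 3 it was 0.44 (unadjusted p = 0.020, under 0.05 for 4.74% of all genes, adjusted p = 0.77 by edgeR). Without both it was 0.57 (unadjusted p = 0.00084, under 0.05 for 4.79% of all genes, adjusted p = 0.34 by edgeR). The study that made these libraries listed Cacna2d4 among its differentially expressed genes of the cortex, by DESeq2 at an adjusted p below 0.05. That call was not reproduced here by either test, and the reason was not tested. In hippocampus Cacna2d4 ran from 0.907 to 2.15 CPM against 0.940 to 1.39, at 0.37 (SE 0.195, interval -0.05 to 0.79, adjusted p = 0.69), beside Lrtm2 at 42.3 ± 3.54 against 36.6 ± 2.06 CPM. In cerebral cortex Lrtm2 had 56.0 ± 6.01 CPM in Gnb5-/- against 55.9 ± 3.07 in Gnb5+/+.

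Cacna2d2 was the member most unlike the rest in the 3 brain libraries that stood apart. In Gnb5-/- cerebral cortex it had 48.0, 53.2, 51.0 and 44.0 CPM in replicates 1, 2, 4 and 6, but 4.05 in replicate 3 and 20.0 in replicate 5. In Gnb5-/- cerebellum it had 25.9 CPM in replicate 2 and 199 to 219 in the other 5. These libraries lay lower than the median of the rest of their group by 12.2-fold, 2.48-fold and 7.72-fold. The log2 fold change of Cacna2d2 in cerebral cortex was -0.51 (SE 0.416, adjusted p = 0.52 by edgeR) with all libraries, -0.28 without replicate 3 and -0.10 without replicates 3 and 5. In cerebellum it was -0.15 (SE 0.348, adjusted p = 0.84) with all libraries and 0.08 without replicate 2.

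Other members were lower in these brain libraries to a smaller degree. In cerebellum replicate 2 Cacnb4 was lower than the median of the others by 2.31-fold (185 CPM), Cacnb2 by 1.84-fold, Cacna2d1 by 1.75-fold, Cacnb1 by 1.72-fold and Cacnb3 by 1.46-fold. Cacna2d3 had 42.4 CPM there, within the 40.2 to 48.9 of the other libraries. In cerebral cortex replicate 3 Cacna2d4 was lower by 2.43-fold, Cacna2d1 by 2.28-fold, Cacnb4 by 1.87-fold, Cacna2d3 by 1.39-fold and Cacnb2 by 1.14-fold. The 6 choroid plexus markers summed to 628 CPM in cerebellum replicate 2, against 8.75 to 14.2 in the others of its group, nearly all of it Ttr (601 CPM). In cortical replicates 3 and 5 they summed to 22.9 and 261 CPM, within the 8.26 to 539 of the others. The 6 cerebellar markers summed to 354 and 235 CPM in these cortical libraries, against 132 to 172 in the others. They were also higher in cerebellum replicate 2, at 4943 CPM against 3794 to 4198 in the others of its group. There the cortical markers summed to 25.5 CPM against 42.9 to 50.6, and the hippocampal markers to 42.4 against 79.1 to 92.3. The 9 skeletal muscle markers summed to 1181 CPM in cerebellum replicate 2, of which Pvalb, which cerebellar neurons also use, gave 1177 against a median of 295. Mylpf (1.23 against 0.308 CPM), Tnnt3 (0.608 against 0.146) and Tnni2 (0.161 against 0.0164), named after their values were seen, were also higher there. The rest of the list did not go with them. Actn3 had 1.32 against 1.20 CPM, Atp2a1 0.358 against 0.373, Myh1 0 against 0.0164, and Myh2 and Myh4 0 against 0. Pvalb had 217 and 59.9 CPM in cortical replicates 3 and 5 against 29.7. The part of these differences in the member values was not tested.

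**Figure D4:**
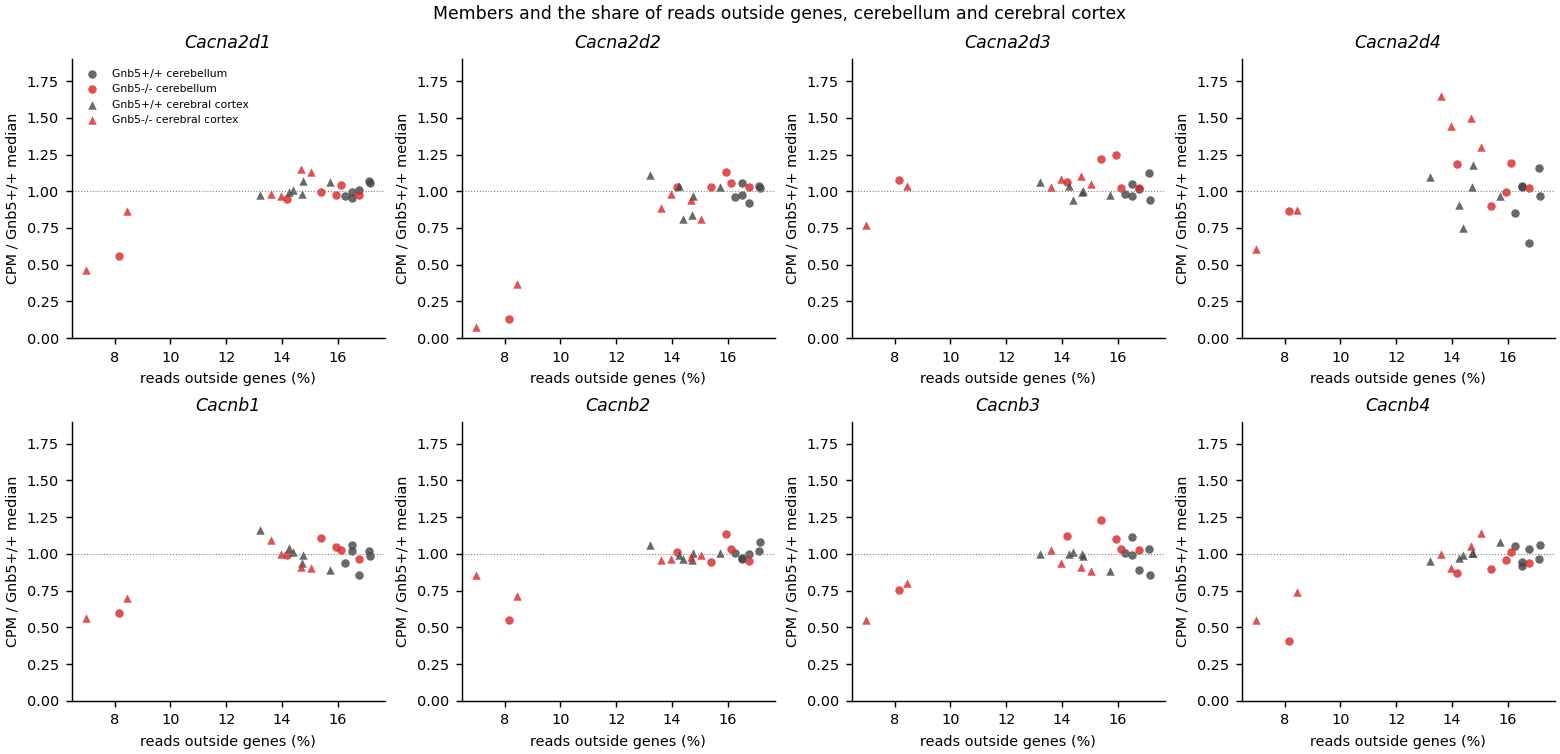
Each member's CPM divided by the Gnb5+/+ median of its tissue (vertical axis) against the percentage of reads outside genes (horizontal axis) in the 24 libraries of cerebellum (circles) and cerebral cortex (triangles), grey for Gnb5+/+ and red for Gnb5-/-. The 3 Gnb5-/- libraries below 9% on the horizontal axis hold the lowest Cacna2d2 values, and Cacna2d3 lies near 1 in cerebellum replicate 2 and cortical replicate 5.

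Cacnb4 in cerebellum ran from 185 to 459 CPM in Gnb5-/- and from 417 to 482 in Gnb5+/+, at -0.24 (interval -0.60 to 0.13) with all libraries and -0.095 without replicate 2 (adjusted p = 0.49 by edgeR). Cacna2d3 in cerebellum, little touched by replicate 2, ran from 40.2 to 48.9 against 36.9 to 44.2 CPM, at 0.13 (SE 0.072, interval -0.02 to 0.29, adjusted p = 0.58 by edgeR), with all 6 Gnb5-/- libraries above the wild-type mean. Cacnb3 in cerebral cortex ran from 139 to 259.5 against 223 to 256 CPM, at -0.19 (interval -0.41 to 0.04) with all libraries, -0.11 without replicate 3 and -0.068 without replicates 3 and 5.

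Whether the genotype effect differs between tissues was tested as an interaction with the mouse as a block. No member was called in ventricles against atria (0.00622% of all genes called), hippocampus against cerebellum (0.0258%), cerebral cortex against cerebellum (0.0103%) or cerebral cortex against hippocampus (0%). At an unadjusted p under 0.05, where edgeR had 4.57%, 3.72%, 3.72% and 4.42% of all genes, 1 member was found in these 4 tests, Cacnb3 in the third, whose effect was lower in cerebral cortex than in cerebellum by a log2 difference of -0.28 (SE 0.126, interval -0.54 to -0.02, adjusted p = 1.00).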

How the data were processed

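Total RNA of 72 tissue samples was sequenced from stranded libraries. The deposited files hold 1 column of read counts per library, whole numbers per Ensembl gene, which the authors made by trimming adapters, removing ribosomal and low-complexity reads, aligning to GRCm38 with STAR and counting with htseq-count. The submitters' processing notes name cutadapt 1.8, STAR 2.5.3a and HTSeq 0.9.1. The strand setting of the counting was not given in the sources used here. Of 53715 identifiers, 53620 were matched to GENCODE M21 (GRCm38), which gave symbols, exon lengths and overlapping genes, and 95 were not.

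Counts on genes ranged from 29204390 to 48807435 per library (median 38864900), and the spread between mice includes counting error. Groups and mouse numbers came from the sample labels. Genotypes were compared within tissues, with the 3 genotypes of a heart tissue fitted together, by edgeR's quasi-likelihood test (edgeR 4.0.16, R 4.3.3) with TMM factors, filterByExpr (count minimum 10) and genotype alone, and adjusted by Benjamini-Hochberg over all genes tested. Tissues (Gnb5+/+) and interactions were fitted with the mouse as a block. A call is an adjusted p below 0.05, and 95% intervals are from the t distribution. Log2 CPM used a prior count of 2. The tests were first tested on simulated data with 200 planted 2-fold changes. The simulated counts followed edgeR's own estimate of each gene's spread, around 1 mean per gene, without effects of mouse, tissue or single library. They therefore do not rank edgeR against DESeq2 on the real libraries. For genotype edgeR recovered 106 in cerebral cortex and 151 in atria. It recovered 172 between hippocampus and cerebral cortex, and 94 in the interaction of cerebral cortex against cerebellum. In cerebral cortex DESeq2 recovered 142 and also called 49 unchanged genes, where edgeR called 2. Changes of 2-fold can thus be missed by these tests. Alternatives were DESeq2's Wald test (1.42.0), RLE factors, no low-count filter, the replicate block, 2 genotypes only, leaving out libraries, the knockout mice in place of wild-type mice and another gene length. A covariate for the percentage of reads that fell outside genes, leaving out each library in turn, and leaving out cortical replicates 3 and 5 together or Gnb5+/- ventricles replicate 4 were chosen after seeing the data.

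The 8 members and all gene lists were chosen with earlier results of these data known. Genes named are the members, Gnb5, any pore, γ or partner gene called between genotypes (there were 0), the leading pore and γ gene of each tissue, genes that overlap a member and have counts that bear on it, and the 2 protein-coding genes most like each member. Lrtm1, Lrtm2 and A430018G15Rik were picked from the overlapping genes after their values were seen. Promoters are RefSeq's, GRCm38.p6. Isoforms and protein levels were not analysed here.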

Additional observations from a re-analysis of the deposited data

Results flagged for a closer look

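A library was listed here where it lay far from the rest of its group of 6, as judged by the gap to its nearest neighbour divided by the range of the group (Dixon's criterion at the 95% level). Over 96 groups 12 such values were found, where chance gives about 4.8.

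Gnb5-/- cerebellum replicate 2 accounted for 5 of the 12, all low. They were Cacna2d2 at 25.9 CPM (nearest 199), Cacnb4 at 185 CPM (nearest 395), Cacna2d1 at 41.5 CPM (nearest 70.5), Cacnb2 at 22.8 CPM (nearest 39.4) and Cacnb1 at 10.2 CPM (nearest 16.5). The share of reads outside genes was 8.14% in this library, against at least 14.2% in the rest of its group.

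Other low values were Cacna2d3 at 68.7 CPM in Gnb5-/- cerebral cortex replicate 3 (nearest 91.9) and Cacnb3 at 223 CPM in Gnb5+/+ cerebral cortex replicate 5 (nearest 249.6). High values were Cacna2d1 at 238 CPM in Gnb5+/+ atria replicate 2 (nearest 161) and at 449 CPM in Gnb5-/- ventricles replicate 6 (nearest 349). Cacna2d3 was high at 1.68 CPM in Gnb5+/+ ventricles replicate 5 (nearest 1.05), and Cacnb4 at 3.60 CPM in Gnb5+/- atria replicate 3 (nearest 2.28). Cacna2d4 reached 0.754 CPM in Gnb5+/- atria replicate 4, from 28 reads, where the nearest library had 0.0991 CPM. Cacna2d4 fell under edgeR's filter on low counts in the genotype comparisons of the heart, where DESeq2 gave adjusted p of 0.99 or more.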

How the results depend on the processing

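No member was called between genotypes under any alternative run: DESeq2, RLE factors, no filter on low counts, the replicate block, 2 genotypes only, a covariate for reads outside genes, and leaving out the libraries that stood apart or each library of the Gnb5-/- comparisons in turn. Of the counts of members called, 161 stayed within 1.5 times and 1 did not, between hippocampus and cerebral cortex, where 2 members were called in Gnb5-/- mice. Of the single values under an alternative, 773 kept their direction and their side of the threshold, 6 lost the threshold, 29 family shares moved with the longest transcript by more than 1 SD, and 37 turned their sign, none of them past the threshold before or after. Counts of genes limit Cacna2d4 and Cacnb4 in the heart and Cacna2d3 in ventricles.

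The cause of these turns was not tested. With the covariate the log2 fold change of Gnb5-/- atria was 0.016 for Cacnb2 and 0.092 for Cacnb3, that of Gnb5+/- ventricles -0.030 for Cacnb1, and that of hippocampus -0.0032 for Cacnb2. In cerebellum it was 0.063 for Cacna2d1, 0.44 for Cacna2d2, 0.15 for Cacnb1, 0.11 for Cacnb2 and 0.044 for Cacnb4, and in cerebral cortex 0.085 for Cacna2d1 and 0.051 for Cacnb4. Without cerebellum replicate 2 it was 0.084 for Cacna2d2, 0.068 for Cacnb1 and 0.0096 for Cacnb2. Without cortical replicates 3 and 5 it was 0.053 for Cacna2d1 and 0.030 for Cacnb4. Cacnb1 in Gnb5+/- ventricles was -0.0028 with no filter and -0.0034 without replicate 4.

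Between tissues, Cacnb4 in atria against ventricles was -0.036 with DESeq2 and with RLE factors. Cacnb2 in cerebellum against cerebral cortex was -0.042 with DESeq2, -0.044 with RLE factors and -0.021 in Gnb5-/- mice. In Gnb5-/- mice hippocampus against cerebral cortex was 0.22 for Cacna2d1 and 0.14 for Cacnb1. Among the interactions, without the 2 libraries that stood apart most, hippocampus against cerebellum was -0.22 for Cacna2d2 and -0.0081 for Cacnb2, cerebral cortex against cerebellum 0.024 for Cacna2d1 and -0.16 for Cacnb2, and cerebral cortex against hippocampus 0.063 for Cacna2d4 and 0.034 for Cacnb4. Cacnb2 in cerebral cortex against cerebellum was -0.010 with RLE factors.

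Same-numbered mice of different genotypes are different animals, and their deviations did not go together (Pearson's r from -0.25 to 0.15 over genes). With the replicate block 0 members were called in each of the 7 genotype comparisons, and Cacnb1 in Gnb5+/- atria was -9.8e-05 and Cacna2d1 in Gnb5+/- ventricles -0.00044. Without the replicate block the tissue comparisons called 5 to 8 members, and Cacna2d4 in cerebellum against cerebral cortex was 0.00051. The interactions in cerebral cortex against cerebellum without the block were 0.018 for Cacna2d1 and -0.0066 for Cacnb2.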
